A study of Mus musculus with 6 samples.

Results

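The helicases described here are 10 mouse genes, chosen by name as enzymes that unwind G-quadruplexes or belong to the RecQ family: Blm, Wrn, Recql, Recql4, Recql5, Brip1, Rtel1, Pif1, Dhx36 and Dhx9. They are 10 of the 22740 protein-coding genes measured, each matched to 1 row by its symbol, and all 10 passed the filter on low counts that left 12198 genes to test. RNA was sequenced from B16, a mouse melanoma line that the series' design text names B16-F10 and the labels call BRAFV600E-negative. The compared groups were cells given 1 uM CX5461 and cells given the vehicle DMSO, both for 3 days and with 3 libraries each. Nothing in the labels says that the libraries of a group came from separate cultures, so p-values measure only the spread between these libraries, which may be technical.

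A G-quadruplex is a knot of stacked guanines that can form in single-stranded DNA or RNA rich in G runs, and it can block polymerases until a helicase unwinds it. Some RecQ helicases and the iron-sulfur helicases Brip1 and Rtel1 do this on DNA at replication forks and telomeres, whereas Dhx36 acts on both DNA and RNA. CX5461 inhibits RNA polymerase I and stabilises G-quadruplexes, and human cells that lack some homologous recombination proteins are known to be sensitive to it.

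Library totals ran from 17877481 to 22908309 counts with CX5461 and from 17573990 to 20198979 with DMSO. All 7 melanocyte markers were present, summing to 28250 to 30560 CPM (counts scaled to a common library size) with CX5461 and 22080 to 22930 CPM with DMSO. The 12 markers of other cell types summed to 38.95 to 42.25 CPM with CX5461 and 19.6 to 21.09 CPM with DMSO, mostly from 3 genes, and Cdh5 and Krt5 were at 0 in every library. The collagen genes went opposite ways, with Col1a2 called higher, at 25.1 CPM with CX5461 and 2.22 CPM with DMSO, and Col1a1 called lower, at 2.81 and 6.94 CPM. The macrophage marker Cd68 had 12.3 CPM with CX5461 and 10.6 CPM with DMSO and did not pass. All 12 cell cycle markers examined, among them Tk1, E2f1 and Rrm2, were called higher with CX5461, as were 37.2% of all tested genes. These markers, listed with earlier results of these data known, had sums of 991.7 to 1168 CPM with CX5461 and 419.4 to 479.1 CPM with DMSO. Mitochondrial genes made up 2.70% to 3.40% of the CX5461 counts and 1.70% to 1.84% of the DMSO counts. The part of these differences in the changes of the helicases was not tested. In bulk RNA, fewer cells of a type and less RNA per cell cannot be told apart, and scaling to library totals shows changes relative to other genes only. CX5461 replicate 2 stood apart from the other libraries of its group on the second principal component, at -13.7 against 7.48 and 6.04.

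Of the 10 helicases, 7 rose with CX5461, 2 fell and Pif1 did not pass (edgeR quasi-likelihood test, Benjamini-Hochberg adjusted p below 0.05 over all 12198 genes). Of all tested genes 37.2% were called higher, 36.5% lower and 73.7% in either direction. The rises were largest for the iron-sulfur helicases Brip1, at 4.56-fold, and Rtel1, at 2.20-fold, followed by Blm at 1.97-fold, and the falls were those of Recql4 (1.59-fold) and Dhx36 (1.41-fold). The members' median log2 change was 0.64, against -0.005 for all tested genes. Groups did not overlap for 9 of the 10, 7 with all CX5461 libraries above those of DMSO and 2 with all below. Over all tested genes 76.2% had groups that did not overlap, 38.2% with CX5461 above and 37.9% with CX5461 below.

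**Figure D1:**
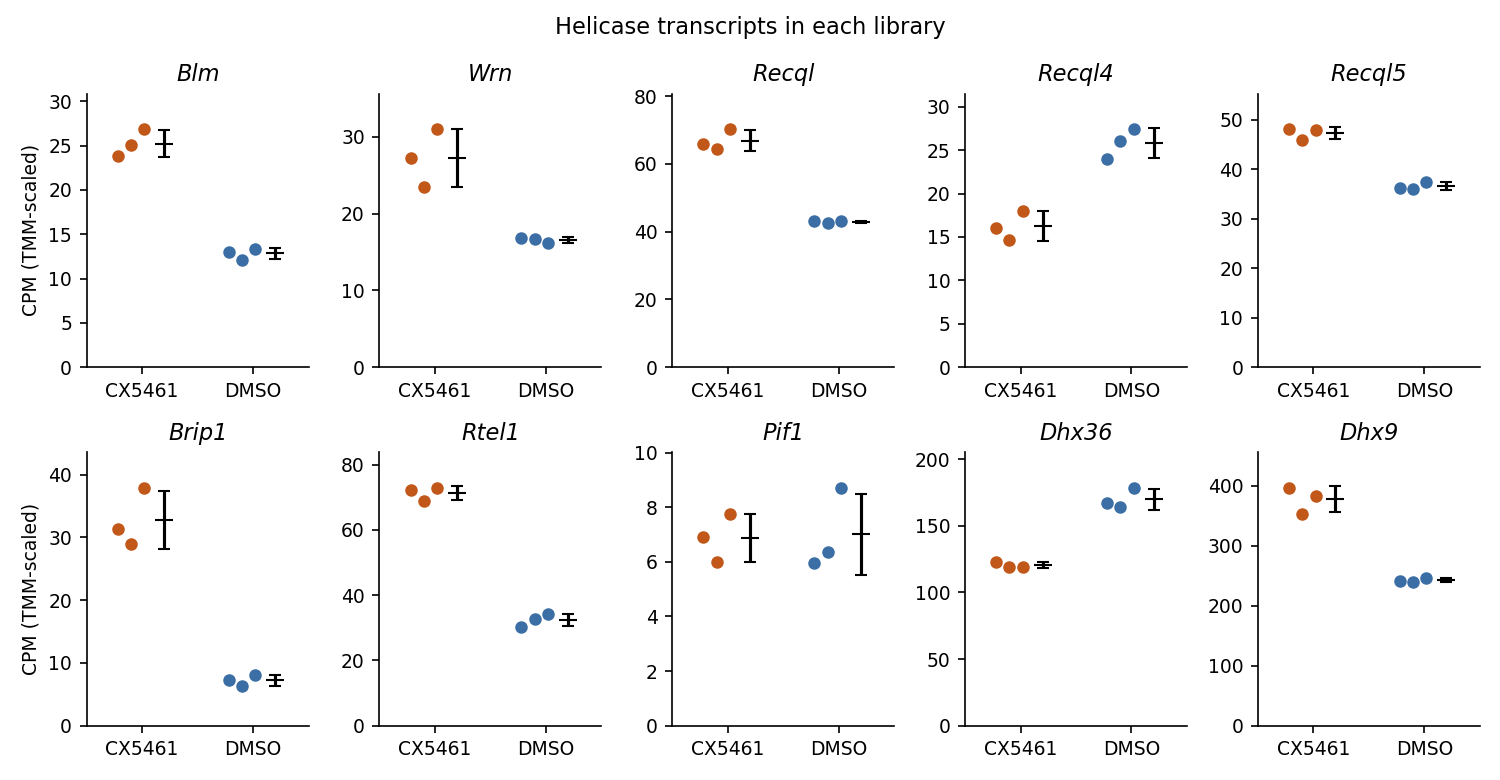
TMM-scaled CPM of each helicase in each library, with the 3 CX5461 libraries left of the 3 DMSO libraries in every panel; bars give the mean ± SD and each panel has its own axis from 0. The points of the groups are apart in every panel except that of Pif1, and only Recql4 and Dhx36 are lower with CX5461.

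Brip1 is a helicase with an iron-sulfur cluster, known also as FANCJ, that binds Brca1 and unwinds G-quadruplexes ahead of replication. Brip1 (ENSMUSG00000034329, GRCm38 chromosome 11, 86058138 to 86201193, minus strand) had 31.3, 29.0 and 37.9 CPM in the CX5461 libraries and 7.32, 6.28 and 8.04 CPM in the DMSO libraries. All 3 treated libraries lay far above all 3 vehicle libraries. The means were 32.7 ± 4.63 and 7.21 ± 0.89 CPM (SD, n = 3 per group), a log2 change of 2.19 ± 0.12 (SE, adjusted p = 1.70e-10). This change was larger in size than that of 96.7% of the tested genes. Brip1 spans 143.1 kb, and the 1033 tested genes that span 100 to 200 kb had a median log2 change of 0.32. Of that span class 59.8% were called higher and 16.5% lower. With an offset for gene span the rise of Brip1 was 3.47-fold.

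Rtel1, a relative of Brip1, takes apart telomeric loops and G-quadruplexes at telomeres. Rtel1 (ENSMUSG00000038685, chromosome 2, 181319739 to 181356616, plus strand) had 72.2, 68.8 and 73.0 CPM with CX5461, against 30.3, 32.6 and 34.2 CPM with DMSO. The groups were well apart, with a spread within each that was small beside the gap. The log2 change was 1.14 ± 0.06 (adjusted p = 1.33e-10). Brip1 and Rtel1 were the 2 members called higher by at least 2-fold, as 11.7% of all tested genes were.

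The sequences upstream of the members' RefSeq starts were searched for G runs and for 4 motifs of growth-linked and housekeeping promoters. RefSeq promoters of build GRCm38.p6 were matched for 7 of the 10 members, with 8 promoters in all, since Recql has a pair of starts. The promoters of the helicases with the largest rises, Brip1, Rtel1 and Blm, are shown with that of Dhx9, which rose and holds an E2F motif, and that of Dhx36, which fell. Each is the 250 bases before the start, 5′ to 3′ on the gene's strand, and capitals mark the G-run pattern, CCAAT in either direction and the E2F motif.
Brip1, chr11:86201194-86201443 (- strand): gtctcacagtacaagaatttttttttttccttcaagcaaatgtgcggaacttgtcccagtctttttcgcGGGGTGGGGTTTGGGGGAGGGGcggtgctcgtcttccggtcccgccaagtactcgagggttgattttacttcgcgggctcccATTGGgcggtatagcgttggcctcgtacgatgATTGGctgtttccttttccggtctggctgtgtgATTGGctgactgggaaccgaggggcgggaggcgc
Rtel1, chr2:181319474-181319723 (+ strand): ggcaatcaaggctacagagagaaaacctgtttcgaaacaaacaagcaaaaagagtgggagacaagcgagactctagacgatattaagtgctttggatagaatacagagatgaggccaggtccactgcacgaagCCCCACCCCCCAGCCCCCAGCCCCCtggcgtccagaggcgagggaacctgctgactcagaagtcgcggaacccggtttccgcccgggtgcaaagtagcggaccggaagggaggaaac
Blm, chr7:80534999-80535248 (- strand): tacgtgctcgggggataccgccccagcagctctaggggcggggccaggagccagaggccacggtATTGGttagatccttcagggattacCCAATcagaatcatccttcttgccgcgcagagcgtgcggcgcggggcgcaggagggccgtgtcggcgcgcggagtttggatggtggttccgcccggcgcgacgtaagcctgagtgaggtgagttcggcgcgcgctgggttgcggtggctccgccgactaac
Dhx9, chr1:153487661-153487910 (- strand): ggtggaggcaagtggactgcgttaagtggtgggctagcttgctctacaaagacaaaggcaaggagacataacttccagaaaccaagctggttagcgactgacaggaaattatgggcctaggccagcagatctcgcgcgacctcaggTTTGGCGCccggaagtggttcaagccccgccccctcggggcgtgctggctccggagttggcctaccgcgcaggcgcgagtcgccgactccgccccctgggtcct
Dhx36, chr3:62506989-62507238 (- strand): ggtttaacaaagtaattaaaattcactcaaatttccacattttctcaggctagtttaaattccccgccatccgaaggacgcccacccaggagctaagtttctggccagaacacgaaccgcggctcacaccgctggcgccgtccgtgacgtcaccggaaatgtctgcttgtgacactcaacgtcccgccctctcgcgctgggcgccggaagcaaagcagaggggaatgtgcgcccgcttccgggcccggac

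The G-run pattern searched was 4 runs of at least 3 G parted by 1 to 7 bases, on either strand, the usual form of a sequence that can fold into a G-quadruplex. Of the 7 members with a promoter only Brip1 and Rtel1 held it in this window. In Brip1 the G runs lay on the gene's own strand between bases -181 and -160 from the start, and in Rtel1 on the opposite strand between bases -117 and -93, where they read as C runs in the line above. The pattern stood in 16.7% of the 32851 promoters in the table and in 25.2% of those of tested genes. By gene, it stood in 31.1% of the 3414 genes called higher that had a promoter, in 29.1% of the 3302 called lower and in 25.9% of the 2363 that did not pass, against 29% of all 9079 tested genes with a promoter. Among genes called with a change of at least 2-fold, the class of Brip1 and Rtel1, the order was the other way, at 31% of those higher and 35.1% of those lower. A match of letters is a description and shows no folded structure. The CCAAT motif, in 33.8% of all promoters and 35.5% of those of tested genes, stood in those of Brip1, Blm, Recql and Recql5, with 3 copies in Brip1, each reading ATTGG on the gene's strand. An E2F motif (TTTCCCGC, TTTGGCGC, TTTCGCGC or TTTGCCGC) was in 1.86% of all promoters, in 3.31% of those of tested genes and, among the members, only in that of Dhx9. A CHR motif (TTTGAA or TTCGAA) was in 17.1% of all promoters, in 11.8% of those of tested genes and, among the members, only in that of Rtel1, as the palindrome TTCGAA. The GC box GGGCGG was in 32.7% of all promoters, in 58.2% of those of tested genes and in all 8 of the members, and can overlap the G-run pattern, as it does in Brip1.

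The RecQ family did not move together. Blm, the helicase lost in Bloom syndrome, which dissolves recombination intermediates with topoisomerase III alpha, had 23.8, 25.0 and 26.8 CPM with CX5461, against 13.0, 12.1 and 13.4 CPM with DMSO. Every treated library held more Blm than any vehicle library, and the log2 change was 0.98 ± 0.08 (adjusted p = 3.96e-08). Wrn, the Werner syndrome helicase, which is also an exonuclease, had 27.3, 23.4 and 31.0 CPM with CX5461, against 16.8, 16.7 and 16.1 CPM with DMSO. The treated libraries were all higher but spread more widely, with a coefficient of variation of 13.9% against 2.17%. Wrn rose by 0.72 ± 0.09 on the log2 scale (adjusted p = 5.34e-06). Wrn spans 151.1 kb, in the same span class as Brip1, and with the gene-span offset its log2 change was 0.28 (adjusted p = 0.00755).

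Recql, also called RECQ1 in human cells, where it restores reversed replication forks, had 65.9, 64.4 and 70.3 CPM with CX5461, against 43.1, 42.7 and 43.1 CPM with DMSO. It was higher in all 3 treated libraries, by 0.64 ± 0.05 (log2, adjusted p = 4.01e-08). Its exons overlap those of Pyroxd1 on the opposite strand over 2895 bases, and without knowledge of strand in the counting these reads cannot be told apart. Pyroxd1 itself changed the other way, by -0.36, at 23.8 CPM with CX5461 and 30.5 CPM with DMSO. Recql5, which binds RNA polymerase II, had 48.1, 45.8 and 47.9 CPM with CX5461, against 36.3, 35.9 and 37.4 CPM with DMSO. Its log2 rise of 0.37 ± 0.06 was the smallest of the 7 (adjusted p = 2.55e-05), and 49.2% of the tested genes had a change smaller in size. Its exons share 196 bases with Sap30bp on the opposite strand, which was called higher too, by 0.28, at 86.5 CPM with CX5461 and 71.1 CPM with DMSO.

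Recql4, which is mutated in Rothmund-Thomson syndrome and takes part in the start of DNA replication, was the RecQ gene that fell. It had 16.03, 14.7 and 18.1 CPM with CX5461, against 23.9, 26.1 and 27.4 CPM with DMSO. All 3 treated libraries were below all 3 vehicle libraries, with a log2 change of -0.67 ± 0.09 (adjusted p = 6.01e-06). Recql4 (chromosome 15, 76703553 to 76710548, minus strand) is the shortest of the members, at 6.996 kb, and tested genes that span up to 10 kb had a median change of -0.07. Its exons share 422 bases with Mfsd3 on the opposite strand, which held 20.6 CPM with CX5461 and 21.3 CPM with DMSO (adjusted p = 0.657).

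Pif1, a helicase that in yeast unwinds G-quadruplexes during replication, had 6.89, 5.98 and 7.74 CPM with CX5461, against 5.96, 6.37 and 8.71 CPM with DMSO. The groups overlapped, with means of 6.87 ± 0.88 and 7.01 ± 1.49 CPM. The log2 change was -0.02 ± 0.15 (adjusted p = 0.910), and its sign turned when single libraries were left out, between -0.13 and 0.16. Pif1 had 104 to 156 counts per library and a coefficient of variation of 12.8% with CX5461 and 21.2% with DMSO, so a small change could be missed.

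The DExH-box helicases Dhx9 and Dhx36 moved in opposite directions. Dhx9, RNA helicase A, which unwinds RNA duplexes, RNA-DNA hybrids and G-quadruplexes, had 397, 354 and 384 CPM with CX5461, against 241, 240.0 and 247 CPM with DMSO. The groups were apart and the log2 rise was 0.64 ± 0.05 (adjusted p = 8.66e-09). In CPM this was the largest difference of any member, at 135.5 CPM. Dhx36, which binds and unwinds G-quadruplexes of DNA and RNA, had 123, 119 and 119 CPM with CX5461, against 167, 164 and 179 CPM with DMSO. All treated libraries were below the vehicle libraries, and the log2 change was -0.50 ± 0.05 (adjusted p = 1.51e-07). With a GC offset the change of Dhx36, whose longest transcript holds 40% G and C, was -0.30 (adjusted p = 1.57e-05).

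**Figure D2:**
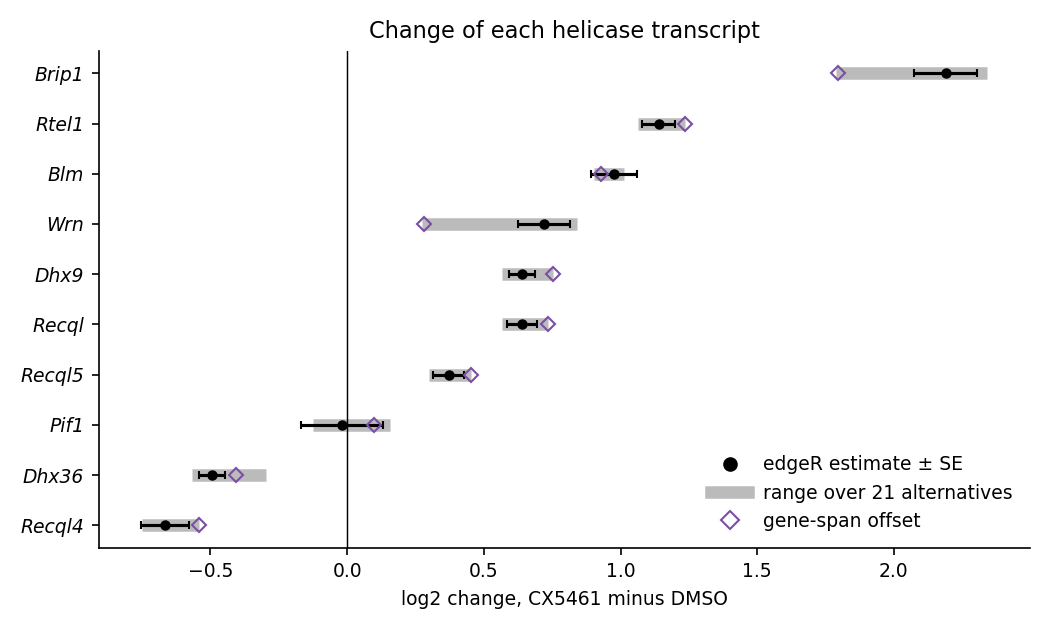
Log2 change of each helicase, CX5461 minus DMSO, with black points and bars for the edgeR estimate ± SE, grey bars for the range over 21 alternative settings and open diamonds for the fit with a gene-span offset. Brip1 stays highest at 1.79 or more, Wrn reaches down to 0.27, and only the bar of Pif1 crosses 0.

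The members' levels differed between the libraries of the CX5461 group. CX5461 replicate 2 held the lowest CPM of its group for 8 of the 10 members, and CX5461 replicate 3 the highest for 7. Those lowest in replicate 2 included Recql4, which fell, and Pif1, which did not pass, so the count does not measure the size of the changes. The same shares over all tested genes were not computed. Without CX5461 replicate 2 the calls were again 7 higher and 2 lower, and the members' median log2 change was 0.67. Over the 6 fits that each left out 1 library, Brip1 ran from 2.07 to 2.27, Wrn from 0.61 to 0.81 and Recql4 from -0.75 to -0.61.

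Levels were compared between genes as CPM per kb of exon. Dhx9 was the most abundant, at 39.4 ± 2.31 CPM per kb with CX5461 and 25.3 ± 0.38 with DMSO, and Dhx36 came next, at 11.8 ± 0.21 and 16.6 ± 0.76. Rtel1 followed Dhx36 with CX5461, at 10.8 ± 0.34 CPM per kb, and with DMSO stood below Recql5, at 4.90 ± 0.30. With DMSO, Recql4 (5.95 ± 0.41) and Recql (5.58 ± 0.03) overlapped, as did Recql5 (5.23 ± 0.11) and Rtel1, and so did Pif1 (1.598 ± 0.34) and Blm (1.46 ± 0.07). With CX5461, Brip1 (4.39 ± 0.62), Recql4 (3.74 ± 0.39) and Wrn (3.58 ± 0.50) overlapped with their neighbours in that order. Brip1 was the lowest member with DMSO, at 0.97 ± 0.12 CPM per kb, and Pif1 the lowest with CX5461, at 1.57 ± 0.20. These lowest places and the places of Dhx9 and Dhx36 were the same when the longest transcript was used as the length, whereas the order in between changed.

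The summed level of the 10 helicases was 93.6 ± 4.5 CPM per kb with CX5461 and 69.7 ± 2.24 with DMSO. The share of Dhx36 in this sum was 12.6% ± 0.60 with CX5461 and 23.8% ± 0.39 with DMSO. Recql4 took 4.00% ± 0.26 with CX5461 and 8.52% ± 0.40 with DMSO. Brip1 took 4.69% ± 0.50 with CX5461 and 1.39% ± 0.14 with DMSO, and Rtel1 11.5% ± 0.20 and 7.02% ± 0.27. Recql5, which rose in CPM, held much the same share, at 7.23% ± 0.17 with CX5461 and 7.5% ± 0.10 with DMSO.

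**Figure D3:**
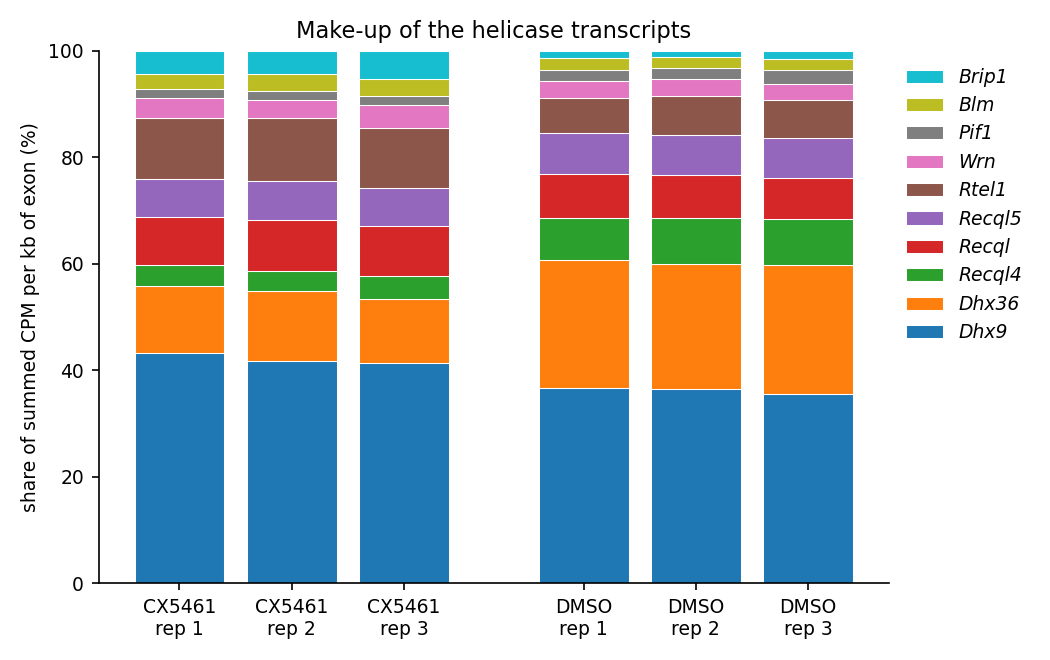
Share of each helicase in the summed CPM per kb of exon of all 10, stacked to 100% for the 3 CX5461 libraries on the left and the 3 DMSO libraries on the right. Dhx36 and Recql4 take smaller shares with CX5461, and Brip1, Rtel1 and Dhx9 larger ones, in every library.

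Ratios of counts within a library do not depend on how libraries are scaled, and 12 pairs within a family were compared. With 3 libraries against 3 the smallest p an exact two-sided permutation test can give is 0.10, or 0.109 after adjustment over the pairs, so none could pass 0.05. The log2 ratio of Dhx36 to Dhx9 was -1.69, -1.57 and -1.69 in the CX5461 libraries and -0.53, -0.55 and -0.47 in the DMSO libraries. The groups were far apart, and the ratio changed by -1.13, to 0.456 times its DMSO value (exact permutation p = 0.10). The log2 ratio of Blm to Recql4 was 0.57, 0.77 and 0.57 with CX5461, against -0.88, -1.11 and -1.04 with DMSO. Blm thus had more counts than Recql4 in each treated library and fewer in each vehicle library, a 3.13-fold change of the ratio (exact permutation p = 0.10). Brip1 rose relative to Rtel1, whose own counts rose: their log2 ratio was -1.13 ± 0.16 with CX5461 and -2.17 ± 0.18 with DMSO. Wrn and Recql kept nearly the same ratio, with a mean log2 ratio of -1.30 ± 0.14 with CX5461 and -1.37 ± 0.03 with DMSO. Theirs was the only pair of the 12 whose groups overlapped (exact permutation p = 0.50, adjusted 0.50). The RecQ pairs reuse the same genes, so they are not separate observations. Groups did not overlap for 76.2% of single tested genes, and the share over other gene pairs was not tested.

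**Figure D4:**
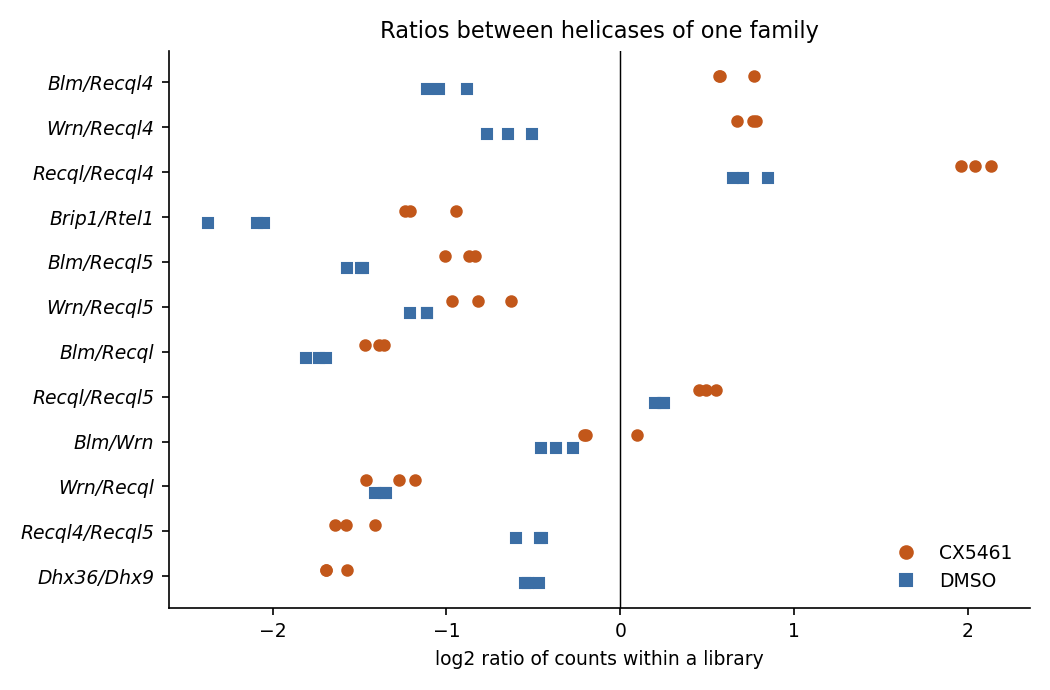
Log2 ratio of the counts of a pair of helicases in each library, for the 12 pairs within the RecQ, iron-sulfur and DExH-box families, with CX5461 as circles and DMSO as squares. The groups are apart in all pairs except Wrn/Recql, and widest apart in Blm/Recql4.

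Among the partners of these helicases more rose than fell. Of 12 tested partners of the RecQ helicases 8 were called higher, 2 lower and 2 neither, and their median log2 change was 0.75. Over all tested genes 37.2% were called higher and 36.5% lower. Rmi2, a subunit of the complex of Blm with topoisomerase III alpha, rose 10.8-fold, to 5.92 ± 1.41 CPM with CX5461, against 0.54 ± 0.23 CPM with DMSO. Its DMSO libraries held only 0.27, 0.68 and 0.67 CPM, so the size of this fold is uncertain. The gene passed the filter on low counts through its CX5461 libraries. Exo1, a nuclease of end resection, rose 3.98-fold. The fallers were Rpa3, the small subunit of replication protein A (log2 change -0.37 ± 0.07), and Wrnip1, which binds Wrn (-0.25 ± 0.05). The subunits Top3a and Rmi1, at 22.1 and 12.5 CPM with CX5461 and 21.2 and 11.9 CPM with DMSO, did not pass (adjusted p = 0.546 and 0.566). With a GC offset or a gene-span offset 1 of the partners fell.

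Of 8 partners of Brip1 and Rtel1, 5 were called higher, 1 lower and 2 neither (median 0.41). Brca1, the tumour suppressor that Brip1 binds, rose 4.54-fold, to 645.4 ± 74.9 CPM with CX5461, against 142.1 ± 16.1 CPM with DMSO. Bard1, the partner of Brca1, rose 2.69-fold and the mismatch repair gene Pms2 1.77-fold. Slx1b, a structure-specific nuclease, changed by -0.30 ± 0.10 (adjusted p = 0.011), and between 0 and 2 of these partners fell over the alternatives. Of 7 iron-sulfur relatives and proteins that deliver iron-sulfur clusters, 3 rose and 4 fell, with a median of -0.15. The shares over all tested genes were 37.2% higher and 36.5% lower. Ddx11, a helicase of sister chromatid cohesion, rose by 0.73 ± 0.08, Ciao1, of the cluster targeting complex, by 0.51 ± 0.05. Ciao3 was called higher by 0.17 ± 0.07 (adjusted p = 0.0434), a call that was lost under 11 of the 21 alternatives, 5 of them with 1 library left out. Ciapin1, of cluster assembly, changed by -0.46 ± 0.04, Ercc2, the XPD helicase of transcription and nucleotide excision repair, by -0.33 ± 0.06 and Ciao2b by -0.22 ± 0.07. With the gene-span offset 2 of the 7 fell.

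The replicative helicase moved as a whole. All 12 genes listed, those of the CMG complex and Mcm10, rose. Their median log2 change was 1.93, more than that of any G-quadruplex or RecQ helicase but Brip1. Mcm5 rose 6.23-fold, Cdc45 6.01-fold and Mcm4 5.01-fold. Among 22 other helicases and translocases known to act on G-quadruplexes, R-loops or stalled forks, 6 were called higher, 7 lower and 9 neither (median 0.01). Calls over all tested genes were 37.2% higher and 36.5% lower. Zranb3, which remodels stalled forks, rose 3.91-fold, the chromatin remodeller Hells 2.62-fold and the RNA helicase Mov10 1.85-fold. Ddx3x and Eif4a2, RNA helicases of translation, changed by -0.48 ± 0.05 and -0.47 ± 0.04, and Twnk, the mitochondrial DNA helicase, by -0.40 ± 0.06.

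The relatives of Dhx36 and Dhx9 and the proteins that bind G-quadruplexes without unwinding them held more genes that fell than rose. Of 17 DExH-box relatives 3 were called higher, 7 lower and 7 neither (median -0.10). Over all tested genes the shares were 37.2% higher and 36.5% lower. Dqx1 fell 2.84-fold, Ythdc2, an RNA helicase of meiosis, 1.44-fold and the mitochondrial RNA helicase Dhx30 1.22-fold. Dhx32 rose by 0.32, Dhx35 by 0.28 and the splicing helicase Dhx38 by 0.20 on the log2 scale. The split of this list moved with the scaling, to 5 higher with upper-quartile factors and to 6 higher and 3 lower with the gene-span offset. Of 26 G-quadruplex-binding proteins, 4 were called higher, 16 lower and 6 neither (median -0.23). Rif1, which sets replication timing, fell 2.03-fold, the transcription factor Sp1 1.75-fold and the splicing factor Hnrnpa1 1.56-fold. Ncl, the nucleolar protein nucleolin, fell 1.35-fold, to 780.0 ± 17.7 CPM with CX5461, against 1056 ± 16.7 CPM with DMSO. Sfpq, a paraspeckle protein, rose 1.64-fold, Parp1, the DNA break sensor, 1.47-fold and Ybx1 1.12-fold, and with library totals only 2 of the 26 rose.

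Telomere proteins, on whose DNA Rtel1, Blm and Wrn act, went both ways. Of 16, 7 were called higher, 7 lower and 2 neither (median 0.09), beside 37.2% higher and 36.5% lower over all tested genes. Ctc1 and Stn1, of the complex that fills in telomere ends, rose 1.70-fold and 1.39-fold, and Pot1b, which binds the single-stranded end, 1.34-fold. Gar1 and Nop10, of the telomerase and H/ACA RNA particles, fell 1.75-fold and 1.37-fold, and the shelterin gene Acd 1.46-fold.

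**Figure D5:**
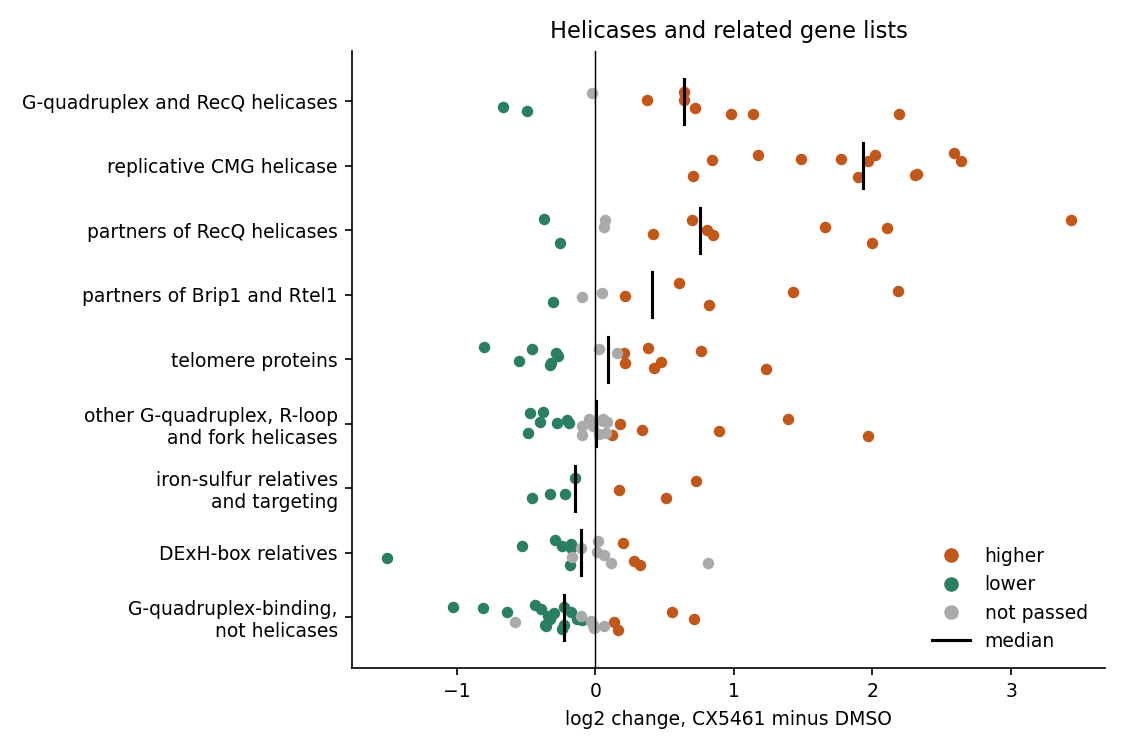
Log2 change of every tested gene of the helicases and of 8 related lists, CX5461 minus DMSO, coloured by call (higher, lower, not passed) with a black line at each list's median. The CMG helicase lies wholly above 0, with a median of 1.93, and the G-quadruplex-binding proteins have the lowest median, at -0.23.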

How the data were processed

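RNA was sequenced in 6 libraries, grouped and numbered by their titles. The deposited table holds whole-number counts of reads per protein-coding gene, raw as its unequal column totals show. The submitters' processing notes name the builds GRCm38 and mm10. Not given in the sources used here were the aligner, the counting tool, its use of strand and its treatment of multiply mapped reads.

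Genes that passed filterByExpr (minimum count 10) were scaled by TMM and tested with edgeR 4.0.16 in R 4.3.3 (glmQLFit and glmQLFTest, two-sided, treatment as the only term), with Benjamini-Hochberg adjustment over all 12198. The SE was taken as the size of the log2 change over the root of the F statistic. Tested on simulated data of 12198 genes for CX5461 against DMSO, the fit recovered 35 of 50 genes changed 1.25-fold. It recovered 47 of 50 changed 1.5-fold and all 50 changed 2-fold, with 4 false calls among 186. The simulation changed far fewer genes than were called here and gave both groups the same spread, so its rates need not hold for these data. Libraries of a group differed by more than sampling noise.

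Gene spans, exon lengths and GC content came from GENCODE M21 on GRCm38, which held 21842 of the 22740 identifiers. The 21 alternatives covered other scalings and filters, DESeq2 1.42.0, limma-voom (limma 3.58.1), a replicate block, offsets for GC content or gene span (lowess, span 0.3), left-out libraries, a stricter threshold and thinned counts. Pair ratios added 0.5 counts. All 10 helicases are named. From each related list all called genes are named where there were 5 or fewer, otherwise the 3 with the largest change in each direction and at least 5 CPM in the higher group. Of the genes this rule names, 1 is not reported here. Ncl was allowed besides, and Cd68, the overlapping genes, Top3a, Rmi1 and Tert were chosen after their values were seen. Members and lists were chosen with earlier results of these data known. The promoters of 3 members and the RecQ partner Faap24 were not analysed here.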

Additional observations from a re-analysis of the deposited data

How the results depend on the processing

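Under all 21 alternatives 7 helicases were called higher and 2 lower, and the directions of the 9 called members held. The sign of Pif1, which never passed, turned with the gene-span offset (0.10), with that offset and the replicate block (0.094), without CX5461 replicate 2 (0.06) and without DMSO replicate 3 (0.16), with -0.13 to 0.16 over the 6 libraries left out in turn, and the cause was not tested. Counts over all genes ran from 3989 to 4818 higher and from 3847 to 5109 lower. Library totals alone moved the median log2 change of all genes to -0.08 and that of the helicases to 0.57. Same-numbered libraries did not deviate together (correlations of 0.04, -0.0002 and -0.03). No pairing by number showed, though a weak shared effect could be missed. The replicate block gave 7 helicases higher and 2 lower and 4536 genes higher and 4464 lower. The log2 rise of Wrn was 0.28 with the gene-span offset and 0.27 with that offset and the block. With the longest transcript as length, 15 of 20 levels per kb moved by more than the spread between replicates, with Recql at 18.2 in place of 8.70 CPM per kb with CX5461. Of the related genes named, Rpa3 lost its call with a GC offset, Wrnip1 with the gene-span offset and Ybx1 with library totals only. Slx1b and Ciao2b lost theirs with the gene-span offset, at an adjusted p of 0.01 and without DMSO replicate 2, and Ciao3 under 11 of the 21 alternatives.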

Other observations

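Tert, the catalytic subunit of telomerase, was chosen after its values were seen because its level is below 5 CPM. It had 2.67 ± 0.70 CPM with CX5461 and 1.148 ± 0.12 CPM with DMSO (SD, n = 3 per group; edgeR adjusted p = 0.000256).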
